A study of Mus musculus with 16 samples.

Results

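The fat pad examined here was eWAT, the epididymal white adipose tissue that lies beside the testis and epididymis of male mice. Its 8 array libraries, 4 called F1 and 4 called CT, are those whose titles name eWAT, out of 16 libraries in the series (the other 8 are from liver). All animals were male C57BL/6J mice (an inbred laboratory strain) killed at 14 weeks of age, and all had control mothers. The fathers of CT offspring ate chow. The fathers of F1 offspring were obese after a high-fat diet with 45% lipids, eaten for 12 weeks from the age of 8 weeks, before mating. The sources used here do not give the offspring's own diet or how many fathers and litters they came from, so p-values measure only the spread between these 8 libraries, some of which may be littermates. The comparison asks how the fat of sons differs when the father was obese.

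White fat is built around adipocytes, which store triglyceride in a single large droplet, release fatty acids when fasting, and secrete leptin and adiponectin. Between them lie the stromal cells that make the matrix and give rise to new adipocytes, a dense bed of blood and lymph vessels, and resident macrophages and lymphocytes. In obesity the pad is known for larger adipocytes, fewer mitochondrial transcripts and more macrophages. The arrays measured whole pads, so fewer cells of a type and less RNA per cell cannot be told apart in any result that follows. Levels are log2 array values in which 1 unit is a 2-fold difference, values are given in the order of replicates 1 to 4, and a difference is always F1 minus CT with its standard error (SE).

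The 8 libraries were alike in scale, with medians from 6.34 to 6.56 and correlations from 0.976 to 0.991 over all 22206 probe sets. The tissue label was borne out by the adipocyte genes. Adiponectin (Adipoq) read 19.09, 19.10, 18.95 and 19.08 in CT and 19.24, 19.11, 19.11 and 19.10 in F1, near the top of the array's scale, against a mean of 3.84 in liver. The droplet coat protein perilipin 1 (Plin1) lay between 17.27 and 17.71 in all 8 libraries. The pan-endothelial Pecam1 and the macrophage receptor Csf1r were also well above the dim threshold of 3.47. The brown-fat uncoupling protein Ucp1 stayed below that threshold, at 2.01 to 2.74. So did the epididymal lipocalin Lcn5, at 2.57 to 3.01.

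Transcripts of neighbouring organs were present in single libraries. Seminal vesicle and prostate secretory genes had a median level of 11.10 in F1 1 and of 3.0 to 3.58 in the other 7 libraries, and the secretory protein gene Svs4 read 14.01 in F1 1 against 3.36 to 4.55 elsewhere. Testis genes had a median level of 8.48 in CT 4 and of 3.56 to 4.11 in the other 7, with the sperm protamine Prm1 at 11.56 in CT 4 and at most 4.72 elsewhere. Without CT 4 and F1 1, 5 of the 11 seminal vesicle and prostate genes and 7 of the 10 testis genes passed the filter on dim genes. Some members thus entered these medians through the high library, which widens the contrast. Each result is therefore given with all 8 libraries and, where the value matters, without CT 4 and F1 1.

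Liver genes varied over a wide range in both groups and were treated as carried-over RNA. The 32 liver genes, such as albumin and the fibrinogen chains, had median levels of 6.46, 5.54, 11.43 and 11.15 in CT and 8.52, 11.68, 8.66 and 12.98 in F1, so the groups overlapped, and every liver library lay between 19.23 and 19.38. All 32 had a higher mean in F1, with a median difference of 1.96, and 0 had an unadjusted p under 0.05. Without CT 4 and F1 1 the median difference was 3.39, with 3 of 32 at an unadjusted p under 0.05. Leaving out these libraries therefore widened the difference in liver genes. Albumin (Alb) itself read 14.16, 12.43, 18.91 and 18.55 in CT and 16.95, 18.77, 16.65 and 19.07 in F1. Among the 546 tested genes whose liver level was at least 4 above their eWAT level, 474 had a higher mean in F1 (median difference 0.58, and 0.87 without CT 4 and F1 1). Outside the lists such genes were passed over when genes were named, and those named as list members are given with their liver level. Each main list was also fitted with the liver level as a covariate. Skeletal muscle genes leaned the other way: 8 of 10 were lower in F1, 4 of them at an unadjusted p under 0.05, with median levels of 5.95, 4.71, 4.35 and 5.99 in CT and 4.44, 4.50, 3.87 and 4.18 in F1. Without CT 4 and F1 1 none of the 10 had an unadjusted p under 0.05 (median -0.43 against -0.69), and with a filter at the 50th percentile the median was -0.09. The part of muscle RNA in the results was not tested.

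**Figure D1:**
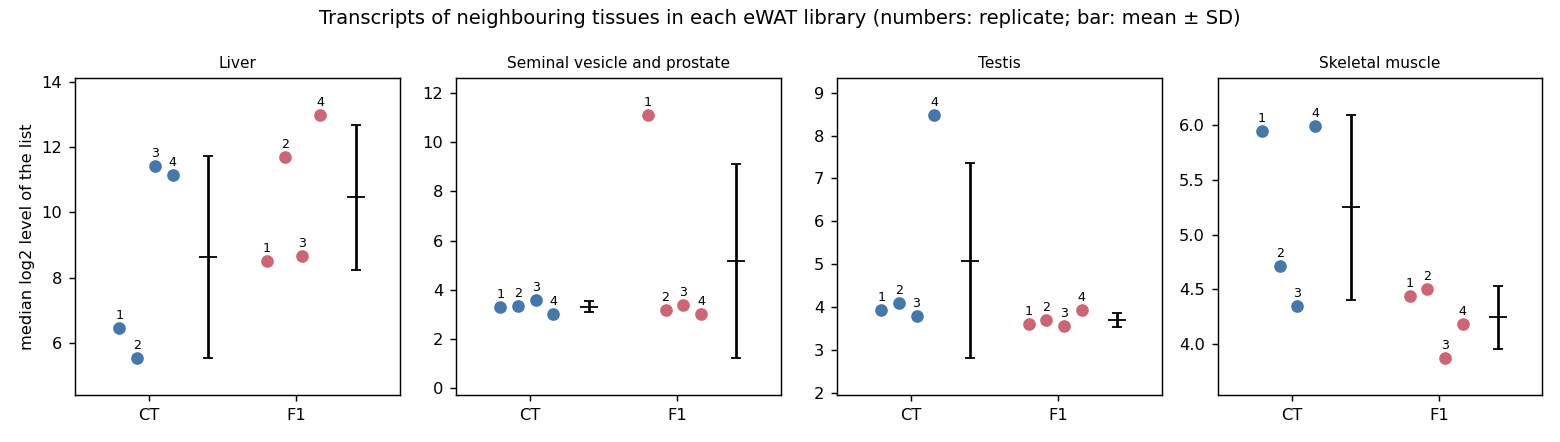
Median log2 level (vertical axis) of the liver, seminal vesicle and prostate, testis and skeletal muscle lists in the 4 CT and 4 F1 eWAT libraries. Numbered points are replicates and bars are the mean ± SD. F1 1 stands apart at 11.10 for seminal vesicle genes and CT 4 at 8.48 for testis genes, whereas the liver level spans 5.54 to 12.98 across both groups.

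No gene passed the test across the pad. With an adjusted p under 0.05 from limma as the threshold, 0 of 14775 genes (0%) were called, and the smallest adjusted p was 0.362. At an unadjusted p under 0.05 there were 736 genes higher in F1, 4.98% of those tested, and 742 lower, 5.02%. These are the shares against which the counts of list members below are read. Because the lists were chosen with earlier results of these data known, counts above these shares are descriptions and no test. The 4 F1 values all lay above the 4 CT values in 430 genes (2.91%) and all below in 445 genes (3.01%). When each library was centred on its own median instead, the split at an unadjusted p under 0.05 became 537 higher and 894 lower. Without CT 4 and F1 1 it was 566 higher (3.83%) and 652 lower (4.42%) of 14760 genes. Over all genes the median difference was -0.00, and 49.4% of genes had a higher mean in F1.

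A fit of all 16 libraries, in which the liver samples share the estimate of spread, called 25 genes (0.169%), 20 higher and 5 lower. In all 25 the eWAT groups did not overlap, which adds no support because the calls rest on the same eWAT values. Of the 25, 2 (Apoc1 and Ddt, both higher) had a liver level at least 4 above their eWAT level and were passed over. The pooled spread was narrower in liver, where the median SD of a gene within a group was 0.258 and 0.281, than in eWAT (0.301 in CT and 0.295 in F1). That fit also estimates the spread from more libraries. The part of each in the calls was not tested. Genes described below are therefore said to be higher or lower with their values, and none is said to have changed. Some are given with limma's adjusted p. For those without it, the adjusted p in the 8 libraries is likewise no smaller than 0.362. The 24 genes that led the ranking by p at 1.5-fold or more had no overlap between the groups. They kept their sign under each of the 18 alternative settings in which they were tested. These genes were picked by p in the same libraries, and leaving out libraries cannot reverse the sign of groups that do not overlap. The kept sign is therefore no added support. A filter at the 50th percentile left out 4 of the 24, Mapk4, Coa7, Zyg11a and Adam4.

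**Figure D2:**
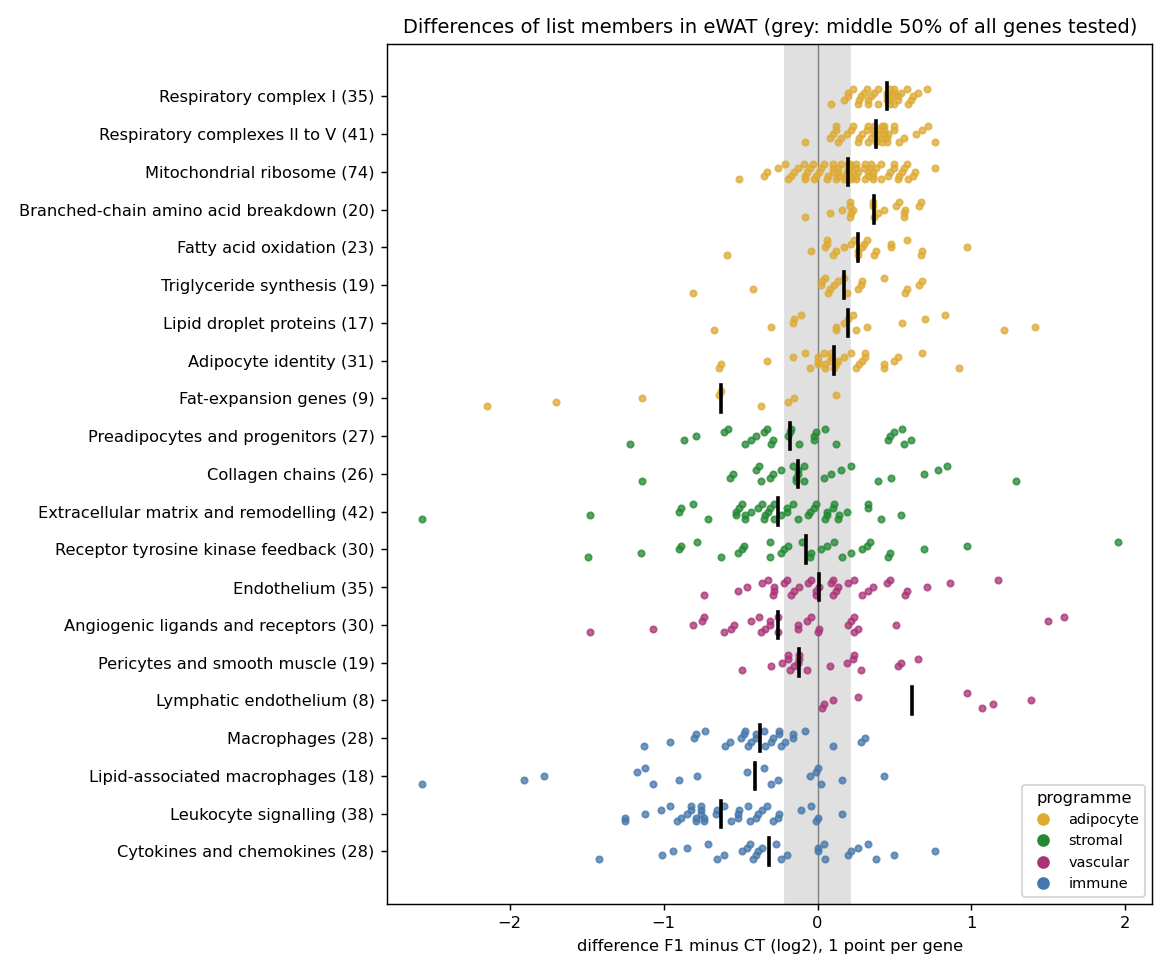
Difference F1 minus CT on the log2 scale (horizontal axis) of every tested member of 21 gene lists, with the number of members in brackets. Points are genes coloured by programme, black bars are list medians and the grey band holds the middle 50% of all genes tested. Complex I lies wholly to the right of 0, from 0.09 to 0.71, and leukocyte signalling almost wholly to the left, with a median of -0.63.

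Leading genes outside the lists included several with known functions in other settings. Fam107a, an actin-binding protein, read 7.93, 8.64, 9.72 and 9.09 in CT and 11.36, 11.38, 10.80 and 10.43 in F1 (difference 2.15 ± 0.38, limma adjusted p = 0.362 in the 8 libraries and 0.0277 in the fit of all 16). The potassium channel Kcnj15 read 10.32, 9.91, 9.92 and 10.04 in CT and 11.11, 10.68, 11.06 and 10.98 in F1 and the neural adhesion molecule Ncam2 read 6.23, 5.81, 5.45 and 6.30 in CT and 7.89, 7.52, 7.34 and 6.72 in F1. All 3 were higher in every F1 library, as were Wdr45, an autophagy protein (difference 0.75 ± 0.15), Tst, a mitochondrial sulphur transferase (difference 1.92 ± 0.45, and 1.94 with the liver covariate), and Chdh, the mitochondrial choline dehydrogenase (difference 1.63 ± 0.38, and 1.29 with the covariate). In the other direction, Cdc42ep3, an effector of the small GTPase Cdc42, read 9.40, 9.92, 9.97 and 9.66 in CT and 8.91, 8.62, 8.42 and 8.26 in F1 (difference -1.19 ± 0.20, limma adjusted p = 0.0277 in the fit of all 16 but not called in the 8 libraries). Tnip3, an inhibitor of NF-kappaB signalling, and Gna15, a G protein subunit of blood cells, were lower in every F1 library (differences of -1.03 ± 0.23 and -1.26 ± 0.29). Nsmce2, a SUMO ligase of the genome-maintaining SMC complex, differed by -0.74 ± 0.14 and the ADP-ribosyltransferase Parp8 by -1.10 ± 0.22, again with no overlap.

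Genes for the mitochondrial respiratory chain were higher in F1 nearly without exception. All 35 tested nuclear genes for subunits of complex I, the NADH dehydrogenase that feeds electrons into the chain, had a higher mean in F1, by 0.09 to 0.71 with a median of 0.45. Their median level was 10.84, 11.00, 10.67 and 10.55 in CT and 11.26, 11.12, 11.16 and 11.16 in F1, so the 2 groups did not overlap. At an unadjusted p under 0.05 there were 16 of 35 higher and 0 lower, and in 13 of 35 the groups did not overlap. Without CT 4 and F1 1 the median was 0.31, with 31 of 35 higher and 9 at an unadjusted p under 0.05. With the liver level as a covariate the median was 0.49.

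The leading members of complex I belong to different modules of the enzyme. Ndufa1, a small membrane subunit encoded on the X chromosome, read 11.22, 11.24, 11.26 and 11.42 in CT and 11.88, 12.19, 11.67 and 11.72 in F1 (difference 0.58 ± 0.16, adjusted p = 0.384). Ndufb8, a subunit of the membrane arm that is often used to gauge complex I assembly, read 9.07, 8.87, 8.82 and 8.49 in CT and 9.43, 9.23, 9.57 and 9.37 in F1 (difference 0.59 ± 0.17, adjusted p = 0.388). In both genes the lowest F1 library lay above the highest CT library. Ndufc1 read 11.31, 11.01, 11.31 and 11.56 in CT against 12.50, 12.03, 11.80 and 11.70 in F1, and Ndufs3, in the arm that carries the iron-sulphur clusters, read 11.92, 11.66, 12.00 and 11.94 against 12.63, 12.32, 12.20 and 12.43. Ndufc2 and Ndufb9 differed by 0.52 ± 0.16 and 0.62 ± 0.20, again with no overlap.

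The promoters of Ndufa1 and Ndufb8 are shown because members of the list share a direction, with the window from 250 bases before to 50 bases after the transcription start as RefSeq gives it for GRCm38.p6 (chrX:37191189-37191488, minus strand and chr19:44555393-44555692, minus strand).
Ndufa1: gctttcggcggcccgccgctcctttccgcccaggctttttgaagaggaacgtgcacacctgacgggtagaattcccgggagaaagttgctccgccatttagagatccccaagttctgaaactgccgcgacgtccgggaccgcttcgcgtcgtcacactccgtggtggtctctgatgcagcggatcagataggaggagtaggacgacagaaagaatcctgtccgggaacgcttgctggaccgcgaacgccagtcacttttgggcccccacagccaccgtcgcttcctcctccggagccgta
Ndufb8: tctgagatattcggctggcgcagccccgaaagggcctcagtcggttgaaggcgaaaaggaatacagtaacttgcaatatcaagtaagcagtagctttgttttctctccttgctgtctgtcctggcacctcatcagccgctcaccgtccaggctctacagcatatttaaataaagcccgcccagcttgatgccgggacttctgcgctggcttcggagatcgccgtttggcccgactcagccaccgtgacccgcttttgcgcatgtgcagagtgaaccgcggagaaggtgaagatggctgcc
The windows were searched on both strands for 4 motifs, which would stand in capitals: GCGCATGCG for NRF1, a factor known for nuclear-encoded respiratory genes, TCAAGGTCA for the oestrogen-related receptors, AAAGGTCA for PPAR and GAGGAAGT for PU.1. The receptor and PPAR letters share AAGGTCA. Neither window holds any of them. Of the 35 tested complex I genes, 32 had a window in the table, and the NRF1 letters were found in 2 of their 34 windows (5.88%, those of Ndufa11 and Ndufa8) against 1.75% of all 32851 windows. The receptor and PPAR letters were in 0 of 34, against 0.423% and 1.51% of all windows, and the PU.1 letters in 2 of 34 (those of Ndufa5 and Ndufs4) against 3.2%.

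Complexes II to V, which pass the electrons on to oxygen and make ATP, gave similar values. Of 41 genes 40 had a higher mean in F1, 17 at an unadjusted p under 0.05 and 10 with no overlap, and the median difference was 0.38 (0.28 without CT 4 and F1 1, 0.47 with the liver covariate). The list's median level was 12.66, 12.81, 12.40 and 12.50 in CT and 12.89, 12.90, 12.92 and 12.85 in F1. Without the 2 libraries 6 of 41 had an unadjusted p under 0.05. Cox6c, a subunit of cytochrome c oxidase, read 14.02, 13.69, 13.75 and 13.99 in CT and 15.08, 14.69, 14.52 and 14.20 in F1 (difference 0.76 ± 0.21, adjusted p = 0.382). ATP synthase was represented by Atp5j2 at 13.30, 13.17, 12.73 and 13.07 in CT and 14.05, 13.78, 13.60 and 13.57 in F1 and by Atp5g1, which encodes its proton-carrying ring, at 9.19, 9.28, 8.96 and 9.16 in CT and 9.78, 9.70, 9.73 and 9.50 in F1. Both were higher in each F1 library than in any CT library. Cytochrome c1 (Cyc1) of complex III read 9.05, 8.93, 9.30 and 9.29 in CT and 10.17, 9.95, 10.06 and 9.29 in F1, where F1 4 lay within the CT range.

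Branched-chain amino acid breakdown, a pathway that adipocytes use to feed acetyl groups into lipid, was higher in 19 of 20 genes, 7 at an unadjusted p under 0.05. Its median difference of 0.36 was 0.17 without CT 4 and F1 1, and its level of 12.63, 12.09, 12.03 and 11.94 in F1 against 11.88, 11.71, 11.70 and 11.61 in CT shows F1 1 highest. The mitochondrial carrier of these amino acids, Slc25a44, read 12.03, 11.80, 12.12 and 11.88 in CT and 12.86, 12.58, 12.81 and 12.23 in F1 (difference 0.66 ± 0.18, adjusted p = 0.382). Bckdha, a subunit of the dehydrogenase that commits them to breakdown, read 11.97, 11.61, 11.76 and 11.67 in CT and 12.60, 12.37, 12.22 and 12.07 in F1 (difference 0.56 ± 0.17, adjusted p = 0.389). Every F1 value of both genes exceeded every CT value. Bcat2, which removes the amino group first, spread more widely at 12.66, 11.92, 11.83 and 11.31 in F1 and 11.57, 11.12, 11.17 and 11.19 in CT.

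Among genes that burn fatty acids 21 of 23 were higher with a median of 0.26 (0.14 without the 2 libraries), but only 3 had an unadjusted p under 0.05. The carnitine transferase Cpt2 led them at 12.65, 12.81, 12.44 and 12.61 in CT and 13.81, 13.09, 13.27 and 13.02 in F1 (difference 0.67 ± 0.20, adjusted p = 0.389). Ppara, the receptor that drives this pathway in liver, differed by 0.97 ± 0.33, with overlapping groups, and its level in liver is 6.76 above that in eWAT. The mitochondrial ribosome, which translates the chain's mitochondrially encoded subunits, was higher in 57 of 74 genes (median 0.20, 0.09 without the 2 libraries), with Mrps35 in front at 0.62 ± 0.16 (adjusted p = 0.371). The tricarboxylic acid cycle had a median of 0.12, and of -0.01 without the 2 libraries. Among single mitochondrial genes outside these lists, Coa7, an assembly factor of the chain, read 4.16, 4.13, 4.09 and 3.33 in CT and 5.44, 5.24, 5.08 and 4.93 in F1, and the mitochondrial hydrolase Hint2 read 8.13, 7.41, 7.29 and 7.52 in CT and 8.48, 8.90, 8.87 and 8.53 in F1. Neither gene had overlapping groups.

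**Figure D3:**
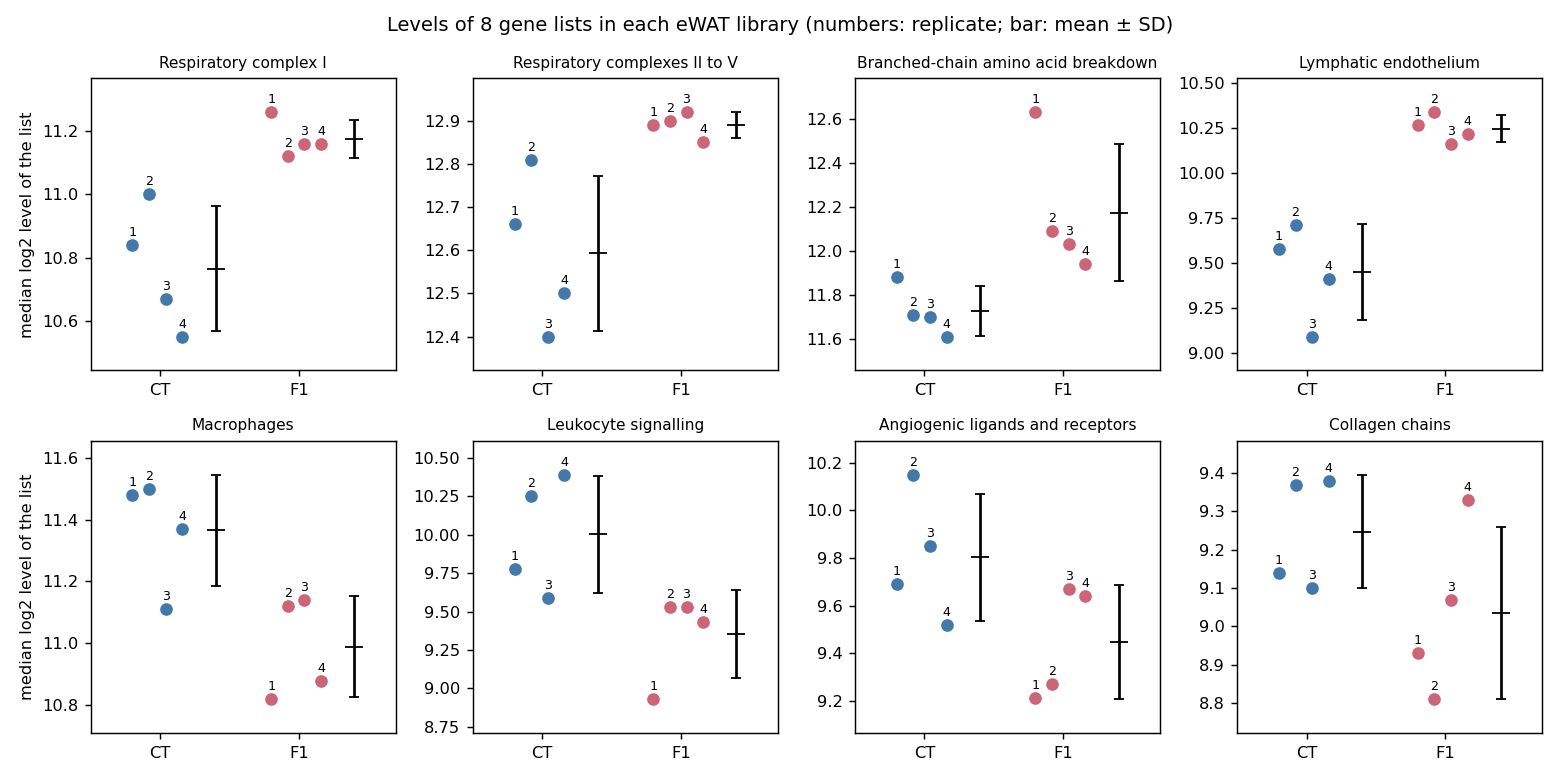
Median log2 level (vertical axis) of 8 gene lists in each eWAT library. Numbered points are replicates and bars are the mean ± SD. The F1 libraries lie above all CT libraries for complex I, complexes II to V, branched-chain amino acid breakdown and lymphatic endothelium, and below all CT libraries for leukocyte signalling.

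Genes of the lipid droplet divided by member. Of 17 droplet proteins, 12 were higher and 5 lower, with a median of 0.20 (0.27 without the 2 libraries). The 4 at an unadjusted p under 0.05 were all higher, with no overlap between the groups. Fitm2, a protein of the endoplasmic reticulum that droplets need to bud, read 12.33, 12.30, 12.42 and 12.44 in CT and 13.21, 13.03, 12.99 and 13.07 in F1 (difference 0.70 ± 0.14, adjusted p = 0.362, 0.68 without the 2 libraries). Plin5, the coat protein that tethers droplets to mitochondria, read 4.32, 4.35, 4.81 and 4.80 in CT and 5.22, 5.65, 5.41 and 5.30 in F1 (difference 0.83 ± 0.18, adjusted p = 0.362), and its liver level is 4.50 higher than in eWAT, with a difference of 0.71 under the liver covariate. Seipin (Bscl2), which forms the neck between droplet and membrane, read 12.25, 12.35, 11.88 and 12.11 in CT and 13.16, 12.61, 12.65 and 12.36 in F1 (difference 0.55 ± 0.20). Cidea, a droplet fusion protein typical of brown and beige fat, read 4.17, 4.08, 4.39 and 4.73 in CT and 7.60, 4.90, 5.0 and 5.51 in F1, so F1 1 carried much of its difference of 1.41 ± 0.53 (0.92 without the 2 libraries).

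The promoters of the 2 leading droplet genes are given for the same windows (chr2:163472580-163472879, minus strand and, for the more upstream of 2 starts, chr17:56117499-56117798, minus strand).
Fitm2: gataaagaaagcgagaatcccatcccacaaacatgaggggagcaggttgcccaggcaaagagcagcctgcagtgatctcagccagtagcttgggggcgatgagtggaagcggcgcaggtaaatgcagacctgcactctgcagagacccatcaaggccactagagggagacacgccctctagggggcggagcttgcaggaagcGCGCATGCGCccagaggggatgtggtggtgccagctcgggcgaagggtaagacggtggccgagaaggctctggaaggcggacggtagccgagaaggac
Plin5: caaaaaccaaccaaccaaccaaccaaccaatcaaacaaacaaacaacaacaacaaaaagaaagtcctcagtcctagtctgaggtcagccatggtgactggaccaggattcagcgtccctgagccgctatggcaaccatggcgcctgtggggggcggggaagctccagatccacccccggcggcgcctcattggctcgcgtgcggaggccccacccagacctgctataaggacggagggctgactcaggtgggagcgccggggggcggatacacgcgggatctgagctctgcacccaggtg
Capitals in the Fitm2 window mark the NRF1 letters, which match on both strands in overlapping positions because they are nearly palindromic, and begin 48 bases before the start. The Plin5 window holds none of the 4 motifs. Across the list, 14 of 17 genes had a window, and 2 of 21 windows (9.52%, those of Fitm2 and Abhd5) held the NRF1 letters.

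Triglyceride assembly was higher in 17 of 19 genes by a median of 0.17, and in 13 of 19 without the 2 libraries. Gpat4, an acyltransferase of the first step, read 12.46, 12.35, 12.25 and 12.70 in CT and 13.26, 12.98, 12.98 and 12.81 in F1 (difference 0.57 ± 0.17, adjusted p = 0.389), with no overlap. Dgat1, which adds the last acyl chain, read 10.56, 11.07, 10.55 and 10.28 in CT and 11.79, 11.22, 11.24 and 10.84 in F1, and F1 4 lay within the CT range. Acsl4, which activates arachidonic acid, was the member at an unadjusted p under 0.05 in the other direction (-0.42 ± 0.16). Of 18 genes of fatty acid synthesis 1 had an unadjusted p under 0.05 with all 8 libraries. Acacb, the acetyl-CoA carboxylase of the mitochondrial surface, read 9.22, 9.20, 9.94 and 9.40 in CT and 11.03, 10.73, 10.09 and 10.23 in F1 (difference 1.08 ± 0.26, adjusted p = 0.362), while the list's median was 0.07. Without CT 4 and F1 1 that median was -0.07, with 1 gene higher and 3 lower at an unadjusted p under 0.05. On the side of fat release, Hcar2, a receptor that restrains lipolysis, read 9.03, 9.24, 9.07 and 9.32 in CT and 9.90, 9.71, 9.42 and 9.92 in F1 (difference 0.57 ± 0.17, adjusted p = 0.389). Adcy5, an adenylate cyclase that promotes it, read 11.38, 11.59, 11.36 and 11.12 in CT and 11.88, 11.67, 12.08 and 12.60 in F1 (difference 0.70 ± 0.22, adjusted p = 0.395). Both genes were higher in every F1 library, and the lipolysis list as a whole had 13 of 19 genes higher and 6 lower (median 0.21), with 2 higher and 1 lower at an unadjusted p under 0.05.

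The genes that define the mature adipocyte differed little as a group. Of 31, 22 were higher, 6 lower and 3 at 0.00 to 2 decimals (median 0.11, 0.03 without the 2 libraries). Adipoq and Plin1 differed by 0.09 ± 0.13 and 0.17 ± 0.14, the insulin-sensitive glucose transporter Slc2a4 by 0.22 ± 0.23, and the master regulator Pparg by -0.33 ± 0.17, all with overlapping groups. Cyp2e1, an oxidising enzyme abundant in fat and liver, was the most separated, at 17.54, 17.04, 17.47 and 17.42 in CT and 18.68, 18.43, 17.88 and 18.17 in F1 (difference 0.92 ± 0.21, adjusted p = 0.362). It was among the 25 genes called by the fit of all 16 libraries (limma adjusted p = 0.047), and its difference was 0.88 with the liver covariate, although its liver level is 2.06 higher. Fam13a, linked to fat distribution and insulin signalling in adipocytes, read 14.74, 14.08, 14.35 and 15.32 in CT and 16.16, 16.10, 16.15 and 15.99 in F1 (difference 1.48 ± 0.25, a 2.78-fold difference). Sult1e1, which inactivates oestrogens and marks male fat, read 11.26, 11.37, 11.65 and 11.44 in CT and 12.17, 12.62, 12.31 and 12.01 in F1 (difference 0.85 ± 0.18, adjusted p = 0.362), with a mean of 3.66 in liver.

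Secreted factors and genes that track fat mass gave values in both directions. Leptin (Lep), whose transcript follows adipocyte size, read 17.73, 17.87, 17.56 and 17.21 in CT and 16.35, 16.93, 17.02 and 17.56 in F1 (difference -0.63 ± 0.26, adjusted p = 0.471), with F1 4 inside the CT range. Neuregulin 4 (Nrg4), an adipokine that acts on liver, was higher in every F1 library at 14.09, 13.93, 13.60 and 14.11 in CT and 14.78, 14.79, 14.94 and 14.53 in F1 (difference 0.83 ± 0.17, adjusted p = 0.362). The 9 genes known to rise as fat pads expand, of which Lep is a member, were lower in 8 of 9 (median -0.63), 3 of them at an unadjusted p under 0.05. Without CT 4 and F1 1 the median was -0.51, with 6 of 9 lower and 4 at an unadjusted p under 0.05. Bmp3 read 12.11, 12.48, 12.32 and 11.75 in CT and 9.12, 9.77, 11.14 and 11.83 in F1, a difference of -1.70 ± 0.53 (adjusted p = 0.389) with F1 1 and F1 2 lowest and F1 4 inside the CT range. Npr3, the receptor that clears natriuretic peptides, read 18.56, 18.51, 18.54 and 18.16 in CT against 17.23, 17.77, 18.06 and 18.15 in F1. Its lowest CT value of 18.16 stood just above its highest F1 value of 18.15. The Wnt inhibitor Sfrp5 (7.09, 9.63, 10.37 and 12.96 in F1, 12.75, 12.49, 11.89 and 11.52 in CT) and the imprinted Mest (13.93, 16.75, 16.69 and 17.17 in F1, 17.24, 17.41, 17.48 and 16.98 in CT) spread widely within F1, with F1 1 lowest in both.

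Among beige-fat genes, Ucp1 was dim in all 8 libraries, and of the 16 tested members 12 had a higher mean in F1 (median 0.33), 3 at an unadjusted p under 0.05. These were Cidea, the muscle-type cytochrome oxidase subunit Cox8b (4.68, 5.03, 4.63 and 5.72 in CT and 7.06, 6.52, 6.08 and 4.85 in F1) and Ppargc1a, the coactivator of mitochondrial genes (9.08, 8.75, 9.46 and 9.24 in CT and 10.62, 10.32, 9.31 and 9.27 in F1). In Cox8b F1 4 and in Ppargc1a F1 3 and F1 4 lay within the CT range. F1 1 was the highest library in all 3 genes. The list's level was 4.75, 5.08, 5.43 and 6.44 in CT and 6.97, 6.12, 5.47 and 5.86 in F1, so the groups overlapped and F1 1 was again highest. Without CT 4 and F1 1 the median was 0.27, with 10 of 16 higher and 4 at an unadjusted p under 0.05. Among adipogenic regulators, the early factor Cebpd was lower in every F1 library (-0.63 ± 0.18, adjusted p = 0.386) and the liver X receptor Nr1h3 higher (0.48 ± 0.16, adjusted p = 0.401). The list took no settled direction. The median difference of its members was 0.18, but its level was 11.35, 11.36, 11.36 and 11.51 in CT and 11.21, 11.28, 11.37 and 10.90 in F1, a difference of -0.20.

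In the stroma, matrix-remodelling genes tended lower while collagens took no common direction. Of 42 matrix genes other than collagens 30 were lower in F1 (median -0.26), 5 at an unadjusted p under 0.05 and 0 higher at that level. Without CT 4 and F1 1 the median was -0.10. The aggrecanase Adamts5 read 16.61, 16.32, 16.18 and 15.85 in CT and 14.97, 15.48, 15.31 and 15.61 in F1 (difference -0.90 ± 0.21, adjusted p = 0.362), and its relative Adamts1, which also restrains angiogenesis, read 11.67, 11.85, 11.47 and 11.33 in CT and 10.87, 10.68, 10.43 and 11.10 in F1 (difference -0.81 ± 0.19, adjusted p = 0.362). In both, every F1 value was below every CT value, and the differences without the 2 libraries were -0.90 and -0.93. The basement-membrane linker Nid2 gave the same order (difference -0.49 ± 0.16). Mmp12, an elastase made by macrophages, had the list's widest difference, -2.57 ± 0.89, from 14.80, 15.09, 14.49 and 16.22 in CT and 10.22, 12.20, 12.68 and 15.23 in F1. F1 4 lay in the CT range, and without the 2 libraries the difference was -1.42.

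Among 26 collagen chains 10 were higher and 16 lower, with a median of -0.13 that became 0.09 without CT 4 and F1 1. The fibrillar Col1a1 and Col3a1 differed by -0.37 ± 0.34 and -0.09 ± 0.21 and the microfibrillar Col6a3 by -0.09 ± 0.17, each with overlapping groups. A less common collagen VI chain, Col6a5, read 11.48, 10.27, 11.78 and 11.27 in CT and 12.03, 13.34, 12.35 and 12.25 in F1 (difference 1.29 ± 0.37, adjusted p = 0.388), higher in every F1 library. Basement-membrane collagen IV split by chain. Col4a5 was lower, at 6.74, 5.93, 6.80 and 6.85 in CT and 4.96, 5.11, 5.26 and 6.43 in F1, and Col4a4 higher, at 5.75, 5.74, 6.31 and 6.34 in CT and 6.77, 7.29, 6.27 and 6.92 in F1. Col4a5 overlapped at F1 4 and Col4a4 at F1 3.

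Progenitor genes were lower in 19 of 27 (median -0.18, -0.09 without the 2 libraries). Creb5, a transcription factor of the Dpp4-positive progenitors, read 10.43, 10.43, 9.95 and 10.48 in CT and 8.45, 8.99, 8.89 and 10.08 in F1 (difference -1.22 ± 0.32, adjusted p = 0.374), and the complement shield Cd55 of the same cells read 11.99, 12.11, 11.29 and 11.35 in CT and 10.41, 10.78, 10.47 and 11.62 in F1 (difference -0.87 ± 0.31). In each, F1 4 lay within the CT range. Dpp4, which marks the earliest progenitors, differed by -0.12 ± 0.28. Sema3c, a secreted guidance factor, was lower in every F1 library (-0.61 ± 0.22, adjusted p = 0.419), and the matrix calcium binder Smoc2 was higher (0.61 ± 0.21, adjusted p = 0.411). Genes of the mesothelium, the sheet that covers the pad, took no settled direction: 9 of 13 were higher (median 0.24), 1 at an unadjusted p under 0.05, but the median was -0.13 without CT 2 and 0.06 with the liver covariate. In this list mesothelin (Msln) differed by -0.08 ± 0.31.

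Signalling by receptor tyrosine kinases was examined through a list of fibroblast growth factors, their receptors, MAP kinase genes and feedback inhibitors. The inhibitors, of the Sprouty, Spred and Dusp families, are transcribed when the MAP kinase cascade is active and dampen it in turn. Of 30 tested, 8 were lower and 2 higher at an unadjusted p under 0.05, while 17 had a lower and 13 a higher mean. Spry4 read 10.38, 10.60, 10.75 and 10.19 in CT and 8.33, 9.20, 9.05 and 9.37 in F1 (difference -1.49 ± 0.24, adjusted p = 0.362). The phosphatases Dusp6 (11.61, 11.78, 11.40 and 11.59 in CT and 11.02, 11.37, 10.95 and 11.08 in F1) and Dusp4 (8.69, 8.42, 8.80 and 8.22 in CT and 7.56, 8.20, 7.69 and 8.18 in F1), which act on ERK, were lower (differences of -0.49 ± 0.16 and -0.63 ± 0.21). In Spry4, Dusp6 and Dusp4 no F1 value reached the CT range. Spred3, a further inhibitor of the cascade, was lower (difference -1.15 ± 0.36), with F1 3 in the CT range. The fibroblast growth factor Fgf2, a ligand that starts it, was lower in every F1 library (difference -0.52 ± 0.18, adjusted p = 0.411). Against these, the atypical kinase Mapk4 was higher, at 3.49, 3.08, 3.01 and 3.28 in CT and 4.53, 5.89, 5.10 and 5.12 in F1 (difference 1.95 ± 0.27, adjusted p = 0.362). In CT 3 of its 4 values lie below the dim threshold of 3.47, so the size of the difference is limited by the bottom of the scale. Its CT mean of 3.21 is also below that threshold, so that it was tested only because its F1 values are higher, and its p-value and its call in the fit of all 16 libraries are no support for the difference.

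Wnt genes took both directions (18 of 29 higher, 5 higher and 2 lower at an unadjusted p under 0.05). Without CT 4 and F1 1, 14 were higher and 14 lower, with 3 higher and 0 lower at that level. The ligand Wnt9a, near the dim threshold in CT, read 4.02, 3.71, 4.18 and 3.42 in CT and 5.81, 4.64, 4.94 and 5.37 in F1 (difference 1.36 ± 0.28, adjusted p = 0.362), and the receptor Fzd6 read 7.78, 7.36, 8.35 and 8.37 in CT and 8.89, 8.59, 8.44 and 8.75 in F1 (difference 0.70 ± 0.25). Both separated the groups. The secreted antagonist Sfrp4 was lower (difference -1.69 ± 0.60), with 2 F1 libraries in the CT range. In transforming growth factor beta signalling Inhbb, the activin beta B chain that adipocytes secrete, read 10.07, 10.55, 10.27 and 9.88 in CT and 9.04, 9.07, 10.04 and 8.77 in F1 (difference -0.96 ± 0.28, adjusted p = 0.389). F1 3 lay in the CT range, and the list's median was -0.08 (0.02 without CT 4 and F1 1).

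General endothelial genes differed little between the groups, while particular vessel genes stood apart. Pecam1, Cdh5 and Kdr, the junction and receptor genes that define endothelium, differed by -0.01 ± 0.21, -0.17 ± 0.18 and -0.20 ± 0.16. Of 35 endothelial genes 18 were higher and 17 lower, with a median of 0.01. Within the list, Vwf, the clotting factor of larger vessels, read 9.83, 10.52, 10.19 and 10.33 in CT and 10.77, 10.91, 10.81 and 10.65 in F1 (difference 0.57 ± 0.18, adjusted p = 0.394), and the capillary retinol-binding protein Rbp7 read 6.48, 7.06, 7.06 and 7.20 in CT and 8.13, 6.87, 8.11 and 8.14 in F1 (difference 0.86 ± 0.31). Vwf separated the groups, whereas F1 2 of Rbp7 lay in the CT range. Sox7, a transcription factor of embryonic vessels, was higher (difference 1.17 ± 0.33), with F1 1 in the CT range. Robo4, which stabilises vessels, and Aplnr, the apelin receptor, were lower (differences of -0.46 ± 0.17 and -0.52 ± 0.20), Robo4 in every F1 library. Fli1, an ETS factor of both endothelium and blood cells, was lower in every F1 library at 13.72, 13.90, 13.98 and 13.95 in CT and 13.03, 13.35, 13.18 and 13.02 in F1 (difference -0.74 ± 0.15, adjusted p = 0.362).

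Angiogenic ligands and receptors were lower in 20 of 30 genes, with a median of -0.26 and -0.27 without CT 4 and F1 1. Of these, at an unadjusted p under 0.05, 5 were lower and 2 higher. The 2 higher genes were both angiopoietins, ligands of the Tie2 receptor. Angpt4 read 6.08, 5.79, 5.91 and 6.54 in CT and 8.00, 7.90, 7.74 and 7.07 in F1 (difference 1.60 ± 0.25, adjusted p = 0.362, a 3.03-fold difference), and Angpt1, the stabilising ligand made by mural cells, read 10.26, 8.72, 9.76 and 9.43 in CT and 11.81, 11.67, 10.60 and 10.09 in F1 (difference 1.5 ± 0.44, adjusted p = 0.389). All F1 values of Angpt4 exceeded all CT values, and 1 F1 value of Angpt1 lay below its highest CT value. Among the lower genes, the arterial ligand Efnb2 read 12.97, 12.80, 13.08 and 13.03 in CT and 12.56, 12.66, 12.13 and 12.10 in F1 (difference -0.61 ± 0.18, adjusted p = 0.389) and the semaphorin and VEGF coreceptor Nrp2 read 11.42, 11.75, 11.34 and 12.06 in CT and 10.44, 11.26, 10.63 and 11.24 in F1 (difference -0.75 ± 0.25, adjusted p = 0.411). Neither overlapped. Cxcr4, the chemokine receptor of tip cells and leukocytes, was lower (difference -1.07 ± 0.29), with F1 3 within the CT range. Mural-cell genes gave a median of -0.12, and the pericyte regulator Rgs5 and smooth muscle actin Acta2 differed by -0.19 ± 0.18 and -0.19 ± 0.38.

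All 8 lymphatic genes had a higher mean in F1, and 6 of 8 when each library was centred on its median. Lymph vessels drain the pad and carry its immune cells. The list's median level was 9.58, 9.71, 9.09 and 9.41 in CT and 10.27, 10.34, 10.16 and 10.22 in F1, with no overlap, and the median difference of 0.61 was 0.62 without CT 4 and F1 1. Mmrn1, a matrix protein of lymphatic endothelium, read 8.74, 9.06, 8.60 and 8.41 in CT and 10.20, 10.21, 9.31 and 9.65 in F1 (difference 1.14 ± 0.24, adjusted p = 0.362), and was called by the fit of all 16 libraries (limma adjusted p = 0.047). The chemokine Ccl21a, which draws dendritic cells into lymphatics, read 10.42, 11.26, 9.57 and 10.85 in CT and 12.45, 12.62, 11.01 and 11.59 in F1 (difference 1.39 ± 0.44, adjusted p = 0.395), and Reln, a glycoprotein of collecting vessels, read 5.61, 5.65, 5.89 and 5.90 in CT and 7.01, 7.87, 5.77 and 6.67 in F1 (difference 1.07 ± 0.38). F1 3 was the lowest F1 library in all 3, and in Ccl21a and Reln it lay in the CT range. Prox1, the factor that specifies these vessels, read 5.83, 6.51, 7.06 and 7.35 in CT and 7.48, 7.95, 5.66 and 9.54 in F1, but its liver level is 7.30 higher and its difference of 0.97 ± 0.71 was 0.38 with the liver covariate. Reln is likewise richer in liver, by 4.36. The receptor Flt4 and the hyaluronan receptor Lyve1 differed by 0.26 ± 0.18 and 0.10 ± 0.20. With the liver covariate the list's median was 0.29, all 8 members remaining higher, and without F1 4 it was also 0.29.

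**Figure D4:**
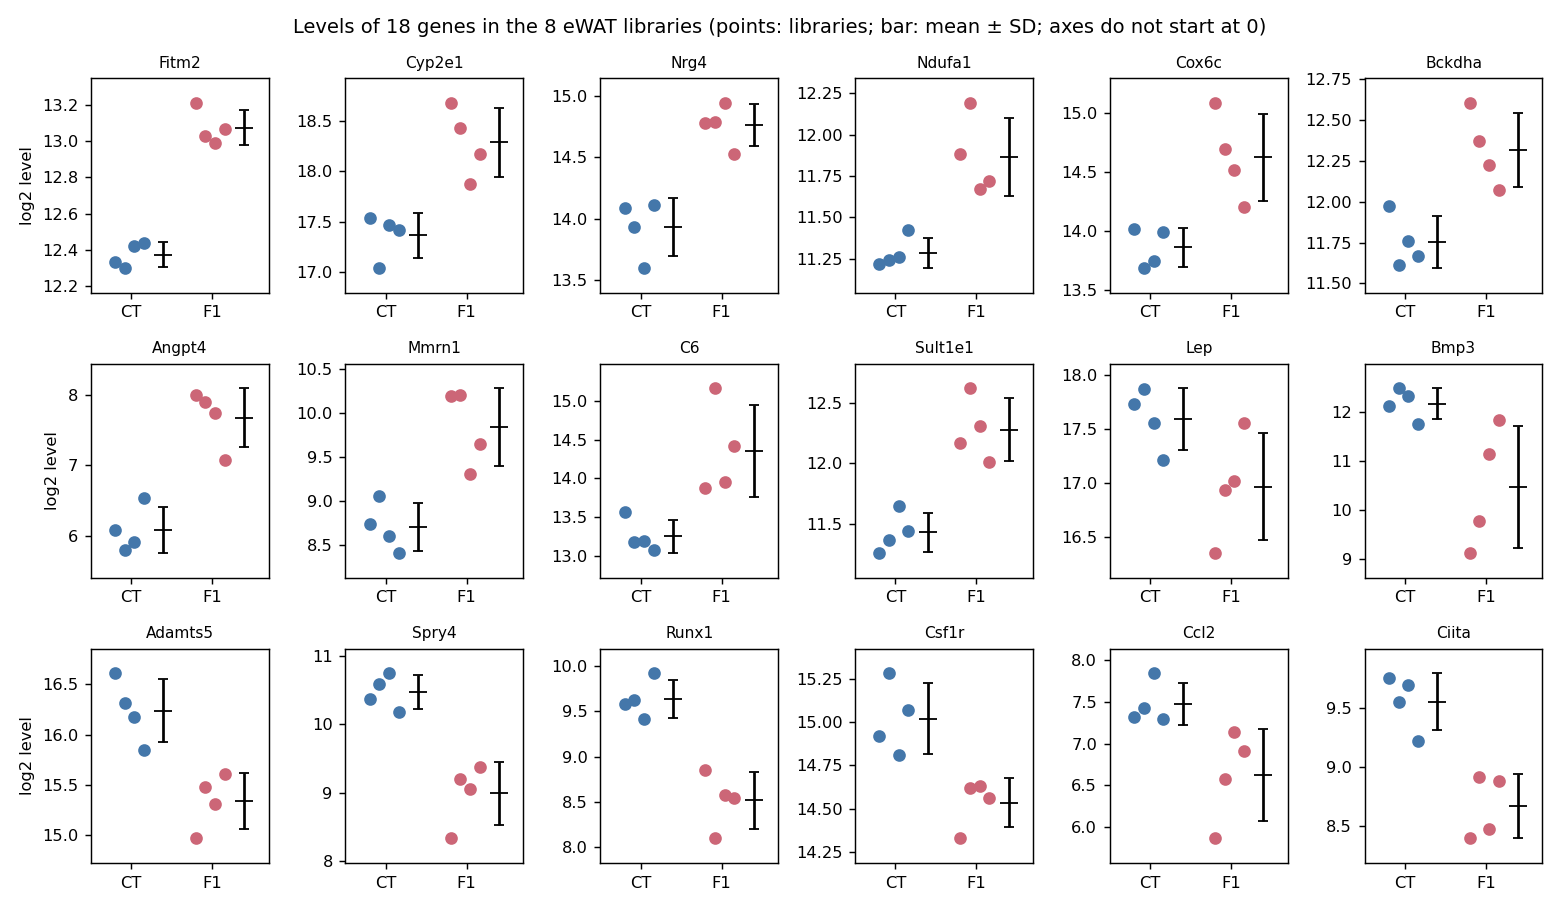
Log2 level (vertical axes, which do not start at 0) of 18 genes in the 4 CT and 4 F1 eWAT libraries. Points are libraries in order of replicate number and bars are the mean ± SD. Of the first 10 genes none has an F1 value within the CT range, whereas in Lep and Bmp3 an F1 library lies among the CT values, and in Ccl2 and the other genes of the last row all F1 values lie below all CT values.

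Genes of leukocyte signalling and of macrophages were lower in F1, whereas lymphocyte and interferon genes were not. Of 38 leukocyte signalling genes 36 were lower, 17 at an unadjusted p under 0.05, and in 15 the groups did not overlap, with 0 in the other direction on either count. The list was chosen with earlier results of these data known. It holds Runx1, P2ry6, Pstpip1, Fli1 and Skap2, which are among the 24 leading genes above, so its counts are a description and no independent support. The median difference was -0.63. The list's level was 9.78, 10.25, 9.59 and 10.39 in CT and 8.93, 9.53, 9.53 and 9.43 in F1, lowest in F1 1. Without CT 4 and F1 1 the median shrank to -0.39, with 36 of 38 lower and 14 at an unadjusted p under 0.05.

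Runx1, a transcription factor of blood cell development, read 9.58, 9.63, 9.42 and 9.92 in CT and 8.85, 8.10, 8.58 and 8.54 in F1 (difference -1.12 ± 0.20, adjusted p = 0.362, 2.17-fold lower). P2ry6, a receptor through which macrophages sense extracellular nucleotides, read 10.32, 10.90, 10.24 and 10.39 in CT and 8.99, 9.05, 9.05 and 9.76 in F1 (difference -1.25 ± 0.23, adjusted p = 0.362). Pstpip1, an adaptor of the leukocyte cytoskeleton, read 9.40, 9.24, 9.55 and 9.47 in CT and 8.76, 8.61, 8.47 and 8.18 in F1 (difference -0.91 ± 0.17, adjusted p = 0.362). In all 3 every F1 library was below every CT library, and without the 2 libraries the differences were -1.14, -1.20 and -0.98. The adhesion adaptor Skap2 (12.68, 12.70, 12.26 and 12.50 in CT and 11.87, 11.75, 11.81 and 11.69 in F1) and the migration factor Dock2 (12.47, 12.49, 12.12 and 13.07 in CT and 11.30, 11.29, 11.83 and 11.66 in F1) gave the same order.

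Promoter windows are shown for Runx1 and Pstpip1, the leading list members with an entry in the RefSeq table (chr16:92826025-92826324, minus strand, the more upstream of 2 starts, and chr9:56089726-56090025, plus strand).
Runx1: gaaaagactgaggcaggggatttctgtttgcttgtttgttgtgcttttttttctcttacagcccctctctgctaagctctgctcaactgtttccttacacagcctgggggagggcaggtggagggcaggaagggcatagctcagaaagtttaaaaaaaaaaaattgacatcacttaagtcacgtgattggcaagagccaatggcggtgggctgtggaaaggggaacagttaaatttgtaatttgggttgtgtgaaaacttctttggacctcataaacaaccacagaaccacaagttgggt
Pstpip1: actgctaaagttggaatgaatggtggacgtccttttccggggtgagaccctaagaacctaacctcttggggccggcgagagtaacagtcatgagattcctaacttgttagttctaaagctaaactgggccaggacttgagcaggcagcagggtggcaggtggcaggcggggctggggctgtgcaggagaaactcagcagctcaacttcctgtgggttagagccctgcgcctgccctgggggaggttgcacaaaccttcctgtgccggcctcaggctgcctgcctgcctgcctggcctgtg
Neither window holds the PU.1 letters searched, GAGGAAGT, or any of the other 3 motifs. PU.1 is the factor known for myeloid promoters. Its letters were found in 4 of 40 windows (10%) of the 29 list genes with an entry, those of Cd37, Cd53, Inpp5d and Vav1, against 3.2% of all windows.

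Macrophage genes were lower in 25 of 28, 6 of them at an unadjusted p under 0.05 and 0 higher (median -0.37). Without CT 4 and F1 1 the median was -0.30, with 22 of 28 lower and 3 at an unadjusted p under 0.05. Csf1r, the receptor macrophages need to survive, read 14.92, 15.28, 14.81 and 15.07 in CT and 14.33, 14.62, 14.63 and 14.56 in F1 (difference -0.48 ± 0.16, adjusted p = 0.411), and Ccr2, which recruits monocytes, read 11.54, 11.40, 11.26 and 11.35 in CT and 10.91, 11.13, 10.83 and 10.41 in F1 (difference -0.57 ± 0.18, adjusted p = 0.397). Both were lower in every F1 library. Adgre1, the classic surface marker of mouse macrophages, read 11.93, 13.16, 11.73 and 12.98 in CT and 11.05, 11.12, 11.27 and 11.83 in F1 (difference -1.13 ± 0.35, adjusted p = 0.389), and its highest F1 library overlapped the lowest CT library. The phagocyte checkpoint receptor Sirpa was lower in every F1 library (difference -0.73 ± 0.23), and lysozyme (Lyz2) differed by -0.80 ± 0.28 with 1 overlapping library.

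Genes of lipid-associated macrophages, the cells that ring dying adipocytes in obesity, were lower in 14 of 18, but much of this depended on CT 4 and F1 1. The list's level was 13.48, 13.95, 14.01 and 14.92 in CT and 12.00, 12.50, 12.91 and 14.41 in F1, and the median of -0.41 became -0.16 without CT 4 and F1 1, with 0 of 18 at an unadjusted p under 0.05. Trem2, the lipid receptor that names these cells, read 7.41, 7.31, 7.55 and 9.28 in CT and 5.60, 6.42, 7.46 and 7.39 in F1, with CT 4 far above the rest, and its difference of -1.17 ± 0.53 was -0.33 without the 2 libraries. The acid lipase Lipa (13.14, 13.63, 13.53 and 14.83 in CT, 12.43, 12.66, 12.41 and 13.36 in F1) and galectin 3 (Lgals3, 12.02, 12.51, 12.03 and 13.78 in CT, 10.72, 10.83, 11.79 and 12.52 in F1) were likewise highest in CT 4.

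Of 28 cytokine and chemokine genes 9 were higher and 17 lower (median -0.31), 6 of them lower and 0 higher at an unadjusted p under 0.05. The monocyte chemokine Ccl2 read 7.32, 7.43, 7.84 and 7.30 in CT and 5.87, 6.58, 7.14 and 6.91 in F1 (difference -0.85 ± 0.28, adjusted p = 0.4) and Ccl3 read 5.91, 6.04, 5.47 and 6.66 in CT and 4.98, 5.35, 5.41 and 4.57 in F1 (difference -0.94 ± 0.28, adjusted p = 0.389), both with no overlap, and Ccl7 was lower (difference -1.01 ± 0.38). The classic inflammatory cytokines were low throughout: Tnf read 5.47, 4.74, 4.49 and 4.95 in CT and 4.23, 3.86, 5.04 and 4.78 in F1 (difference -0.44 ± 0.30) and Il6 stayed near or below the dim threshold, at 2.67 to 4.10.

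Lymphocyte genes showed no common direction. T and natural killer cell genes were higher in 7 and lower in 9 of 16, with the T cell receptor component Cd3e at 0.53 ± 0.28 and the faint Cd8a at -0.84 ± 0.26. Cd79a, a component of the B cell receptor, was the B cell gene with the smallest p, at 5.37, 4.90, 4.97 and 4.96 in CT and 6.14, 7.16, 5.42 and 5.37 in F1 (difference 0.97 ± 0.37, adjusted p = 0.431), with F1 4 equal to CT 1, while the list's median was 0.06. Neutrophil genes had 0 members at an unadjusted p under 0.05, and S100a8 was dim in most libraries. Ciita, the switch for MHC class II transcription, was lower in every F1 library at 9.75, 9.55, 9.69 and 9.22 in CT and 8.40, 8.92, 8.48 and 8.88 in F1 (difference -0.88 ± 0.19, adjusted p = 0.362). The class II chains H2-Aa and H2-Eb1 differed by -0.27 ± 0.18 and -0.23 ± 0.18, with overlapping groups. Interferon-stimulated genes leaned higher, in 17 of 23 (median 0.29), among them Ifitm3 at 12.14, 12.20, 12.19 and 12.13 in CT and 12.37, 12.60, 12.58 and 12.74 in F1 (difference 0.41 ± 0.14, adjusted p = 0.411) and the regulator Irf7 at 0.71 ± 0.30. At an unadjusted p under 0.05, 4 of them were higher and 1, Oas2, was lower. Without CT 4 and F1 1 the median was 0.20, with 16 of 23 higher and 7 lower.

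Complement genes took both directions, with 7 of 18 higher and 11 lower, and 3 of each at an unadjusted p under 0.05. The 3 higher were components of the cascade, with C6 of the membrane attack complex at 13.56, 13.17, 13.19 and 13.07 in CT and 13.88, 15.17, 13.95 and 14.42 in F1 (difference 1.11 ± 0.28, adjusted p = 0.371), C2 at 11.13, 10.62, 10.77 and 10.61 in CT and 11.75, 11.31, 11.40 and 11.42 in F1 (difference 0.69 ± 0.18, adjusted p = 0.371) and C7 at 15.71, 15.45, 16.43 and 16.13 in CT and 17.28, 17.56, 16.66 and 16.16 in F1 (difference 0.98 ± 0.33). C6 is 3.59 higher in liver than in eWAT and differed by 1.03 with the liver covariate, whereas C2 and C7 are lower in liver. The 3 lower were the shield Cd55, given above, and the receptors through which leukocytes sense complement, C5ar1 at 9.65 to 10.62 in CT and 9.09, 8.77, 9.51 and 9.62 in F1 (difference -0.88 ± 0.26, adjusted p = 0.389) and C3ar1 at 13.06, 14.01, 13.57 and 14.71 in CT and 12.21, 12.38, 12.84 and 13.20 in F1 (difference -1.18 ± 0.36, adjusted p = 0.389). C6, C2 and C5ar1 separated the groups.

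Further lists were examined because they bear on inheritance or on sampling. Imprinted genes, which are expressed from 1 parental copy, were lower in 24 of 30 (median -0.23, -0.24 without the 2 libraries), 7 at an unadjusted p under 0.05 and 0 higher. The other direction was present too. All F1 values lay below all CT values in 3 genes and above them in 1, and differences ran from -1.85 to 2.14. The paternally expressed Peg10 read 9.95, 10.32, 9.09 and 8.74 in CT and 6.63, 7.96, 7.49 and 8.64 in F1 (difference -1.85 ± 0.47, adjusted p = 0.37) and separated the groups, as did the paternally expressed Rasgrf1 at -0.55 ± 0.17. Plagl1, also paternally expressed, was lower (difference -0.71 ± 0.22) with 1 overlapping F1 library. The maternally expressed Zim1 was lower too (difference -1.01 ± 0.31), with 1 overlapping F1 library, and the paternally expressed Igf2 differed by -0.00 ± 0.22. Clock genes were higher in 13 of 18, with 4 at an unadjusted p under 0.05: the repressors Nr1d2 (10.68, 11.20, 11.22 and 11.34 in CT and 11.85, 11.67, 12.09 and 11.42 in F1) and Nr1d1 and the output factors Dbp (9.16 to 10.80 in CT and 11.46, 10.79, 12.52 and 10.34 in F1) and Tef. Nr1d2 and Tef separated the groups and Dbp did not. Arntl, which peaks opposite to them, differed by -0.94 ± 0.49 with overlapping groups, and the sources used here do not give the hour of killing. Of 13 steroid-responsive genes, 4 were higher and 0 lower at an unadjusted p under 0.05. Fkbp5, a sensitive glucocorticoid target, read 13.23, 13.30, 14.27 and 15.20 in CT and 15.50, 15.90, 15.74 and 14.92 in F1 (difference 1.52 ± 0.43, adjusted p = 0.386), with CT 4 within the F1 range. Whether sampling time or stress moved with the groups was not tested.

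The remaining programmes held few members past an unadjusted p of 0.05. Insulin signalling and glucose uptake had 2 of 31 higher and 1 lower, among them hexokinase 2 (Hk2), which traps glucose in the cell, at 10.57, 10.79, 11.07 and 11.27 in CT and 12.01, 11.50, 11.88 and 11.27 in F1 (difference 0.74 ± 0.22), and the ubiquitin ligase Cbl, which acts on activated receptors, at -0.41 ± 0.14. Lipid uptake had 1 of 17, the fatty acid transporter Slc27a1 (difference 0.46 ± 0.17), and Hk2 was also among the 2 of 24 hypoxia genes. Cell cycle genes were lower in 19 of 26 (median -0.25), with 0 at an unadjusted p under 0.05. Their level was 6.04, 5.78, 5.29 and 6.70 in CT and 5.74, 5.80, 5.70 and 5.81 in F1. The groups overlapped, and the highest library was CT 4, which held testis transcripts. Without CT 4 and F1 1 the median was -0.13. Immediate-early and heat shock genes split 12 to 12, with the inducible factor Egr2 and the phosphatase Dusp1 lower (differences of -0.90 ± 0.28 and -0.78 ± 0.26). Genes that write DNA methylation and chromatin marks likewise split 12 to 12, with Tet1, which oxidises methylcytosine, and Kmt2d, a histone methyltransferase of enhancers, lower (differences of -0.54 ± 0.20 and -0.51 ± 0.18). The F1 mean of Tet1, 3.21, is below the dim threshold, so it was tested through its CT values. Kmt2d separated the groups and the other 3 of these genes overlapped.

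**Figure D5:**
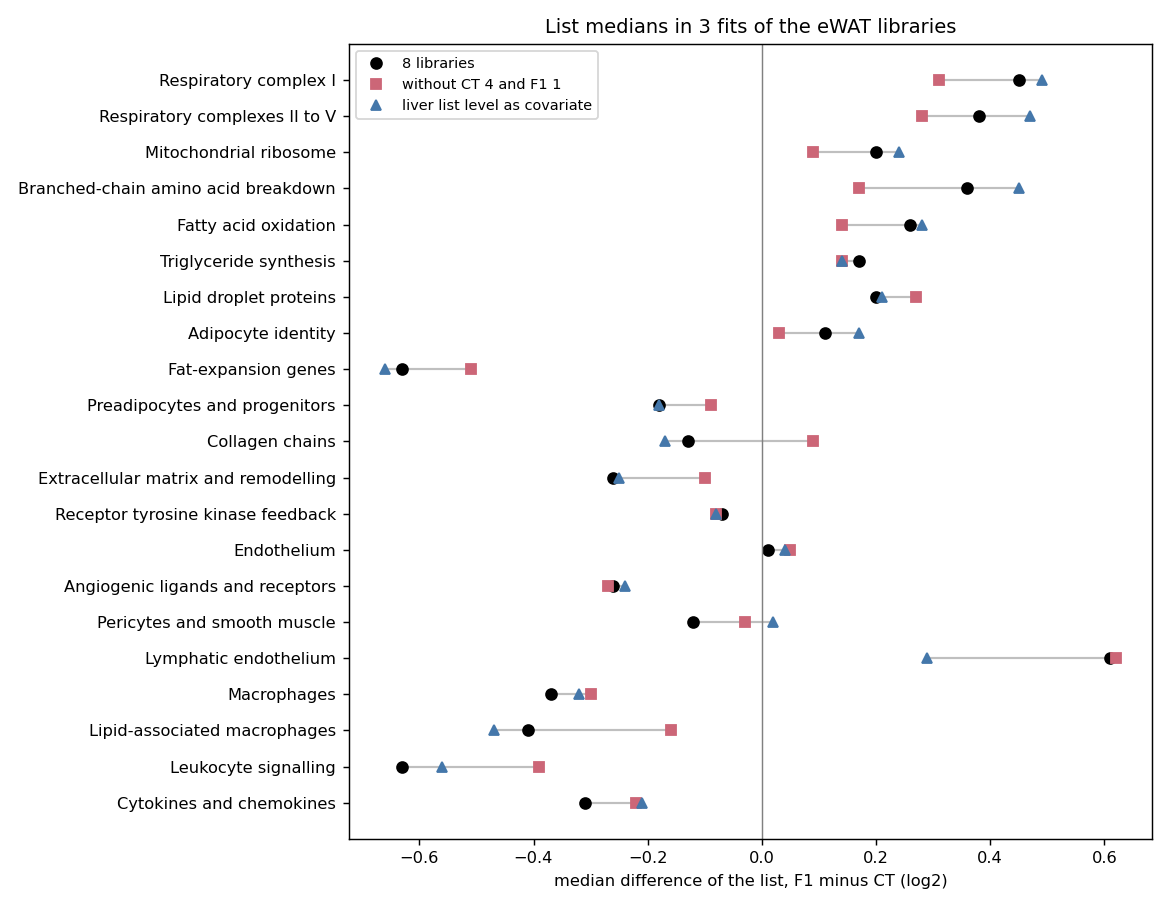
Median difference F1 minus CT on the log2 scale (horizontal axis) of 21 gene lists in 3 fits: all 8 libraries (circles), without CT 4 and F1 1 (squares), and with the liver list level as a covariate (triangles). Complex I spans 0.31 to 0.49 and leukocyte signalling -0.63 to -0.39, whereas collagen chains cross 0 at 0.09 without the 2 libraries and lymphatic endothelium drops from 0.61 to 0.29 with the covariate.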

How the data were processed

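RNA of frozen eWAT was extracted with a miRNeasy kit and DNase and 150 ng was labelled with the Affymetrix WT PLUS kit, per the labels' protocols. The deposited values are log2 levels, for which the submitters' processing notes name RMA and Transcriptome Analysis Console 4.0, so background correction and normalization across arrays were done by the authors. Of 22206 probe sets, 19572 had 1 gene symbol and 2634 none in the platform annotation, which gave 19505 genes (the brightest probe set for the 55 genes with several). Dim genes were left out, that is those whose eWAT mean lay under 3.47, the 25th percentile.

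The 14775 others were fitted with limma 3.58.1 (R 4.3.3, lmFit and eBayes) on the 8 eWAT libraries, 4 per group, with Benjamini-Hochberg adjustment over all of them. A list level is the median of its tested members in a library, and 1299 of 1414 list entries were found on the array; the others are not analysed here. Genes were named by p, at most 12 per direction at 1.5-fold or more and 6 per list, besides fixed marker genes and the calls of the fit of all 16 libraries, and liver-rich genes were passed over outside the lists. The members and lists were chosen with earlier results of these data known. The fitting steps were tested on simulated data whose seeded differences were larger than most reported here. That test does not show how well differences of the reported size are found. The number of arrays limits the precision. The 18 alternatives changed the normalization, the filter, the samples, the covariates or the spread estimate. Same-numbered libraries did not deviate together (correlations of 0.14, -0.23, -0.31 and 0.21 for numbers 1 to 4), so the numbers were not taken as pairs.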

Additional observations from a re-analysis of the deposited data

Results flagged for a closer look

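In 22 of 248 checks of a group of 4, 1 library lay far from its 3 neighbours relative to the group's range, a gap that chance gives in about 1 in 20 groups. Among list levels, the library furthest out was F1 1 for seminal vesicle and prostate genes (11.10 against 3.0 to 3.39) and for leukocyte signalling (8.93 against 9.43 to 9.53). CT 4 stood apart for testis genes (8.48 against 3.79 to 4.11) and adipogenic transcription factors (11.51 against 11.35 to 11.36). F1 2 stood apart for insulin signalling (12.39 against 12.21 to 12.24), CT 2 for transforming growth factor beta signalling (10.84 against 11.15 to 11.19) and F1 4 for pericytes and smooth muscle (8.56 against 9.38 to 9.47).

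Among single genes, F1 1 was the distant library for Svs4 at 14.01, Mest at 13.93, Col3a1 at 16.26 and Adipoq at 19.24. CT 4 was distant for Coa7 at 3.33, Slc2a4 at 11.59 and Trem2 at 9.28. CT 2 was distant for Zyg11a at 4.62, Dpp4 at 9.87 and Pecam1 at 13.76, CT 1 for Cd79a at 5.37, and CT 3 for Adipoq at 18.95. In F1, library 3 was distant for Zyg11a at 6.67 and library 4 for P2ry6 at 9.76 and Acta2 at 14.85.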

How the results depend on the processing

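With all 16 libraries in the fit 25 genes were called, and leaving out 1 library at a time called 0 to 1 (Hoxd3os1 without CT 4, Ccnjl without F1 4). The replicate block called 0 genes, with 673 higher and 705 lower at an unadjusted p under 0.05. Genes whose groups did not overlap numbered 2103 without CT 4 and F1 1 and 1310 to 1627 with 1 library left out, since fewer samples separate more easily. The collagen median was 0.09 without CT 4 and F1 1; the cause was not tested. The lymphatic median was 0.26 with the filter at the 50th percentile, 0.29 with the liver covariate, and 0.29 to 0.75 with 1 library left out. Of 1005 list medians under the 18 alternatives 7 differed from the reported one by more than the spread between replicates, and 37 of 56 lists kept their sign in every alternative that gave a median. Quantile normalization gave Adipoq a difference of -0.07. The number of arrays limits precision, and the ends of the array's scale limit the differences of faint genes such as Mapk4 and Wnt9a and of bright ones such as Adipoq.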
